A study of Mus musculus with 8 samples.

Results

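The 6 genes described here encode the enzymes that commit carbon to new glucose in the kidney, together with the carrier that feeds the last of them: *Pcx*, *Pck1*, *Pck2*, *Fbp1*, *G6pc* and *Slc37a4*. They were taken by gene symbol from the 55401 genes of the deposited kidney RNA-seq table, and all 6 were expressed highly enough to be among the 15150 genes tested. The table holds kidney libraries of 8 diabetic mice, 1 library per mouse: 4 treated with recombinant FGF4 (rFGF4; mice 1, 2, 3 and 5) and 4 diabetic model controls (mice 2, 3, 4 and 5). The sample labels call the mice *db*/*db*, which lack a working leptin receptor and become obese and diabetic, whereas the study itself describes the sequenced animals as streptozotocin-induced diabetic mice given rFGF4 or PBS vehicle. Nothing in the files decides between the models, and both groups are diabetic under either description. The mice of both models in the study were male, and rFGF4 was injected intraperitoneally into each on alternate days for 8 weeks, at 1 mg/kg, starting at 12 weeks of age in the *db*/*db* model. For the streptozotocin model, the methods and the treatment scheme of the study differ on the starting age. Neither non-diabetic mice nor mice before treatment are among these libraries.

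The kidney makes glucose almost entirely in the proximal tubule, mainly from lactate, glutamine and glycerol. Pyruvate carboxylase (*Pcx*) makes oxaloacetate in mitochondria, and phosphoenolpyruvate carboxykinase turns it into phosphoenolpyruvate, either in the cytosol (*Pck1*) or in mitochondria (*Pck2*). Fructose bisphosphatase (*Fbp1*) then bypasses phosphofructokinase. Finally, the transporter encoded by *Slc37a4* carries glucose-6-phosphate into the endoplasmic reticulum, where the catalytic subunit of glucose-6-phosphatase (*G6pc*) releases free glucose. Insulin lowers and fasting hormones raise transcription of *Pck1* and *G6pc*, through factors that include FOXO1, CREB and glucocorticoid receptor, and acidosis raises renal *Pck1*.

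On GRCm38 with GENCODE M21 annotation, *G6pc* lies at chr11:101367561-101377903 on the plus strand, *Pck1* at chr2:173153048-173159273 (plus), *Pck2* at chr14:55540266-55551242 (plus), *Slc37a4* at chr9:44396852-44402968 (plus), *Fbp1* at chr13:62864753-62888282 (minus) and *Pcx* at chr19:4510472-4621752 (plus). Exons of *Pck2* overlap those of *Gm10876* on the opposite strand, so reads of these 2 genes may not have been separated if counting ignored strand. The submitters' processing notes name the older build mm8, so these positions identify the genes and were not used to make any value.

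The levels of *Pck1* and *G6pc* varied together between mice (r = 0.91). So did those of *Fbp1* and *Pcx* (r = 0.95) and of *Pcx* and *Slc37a4* (r = 0.91). For *Pck1* and *G6pc*, the 250 bases before each RefSeq transcription start (GRCm38.p6, plus strand) are shown. Any link between motifs and shared variation was not tested. Capitals mark matches to any of 5 short motifs searched on both strands: TGACGTCA, the full form of the cyclic AMP response element, TTACGTNA, a variant of it, the forkhead factor site CAAAACA, its other known form GTAAACA, and the TATA box TATAAA.
G6pc, chr11:101367466-101367715: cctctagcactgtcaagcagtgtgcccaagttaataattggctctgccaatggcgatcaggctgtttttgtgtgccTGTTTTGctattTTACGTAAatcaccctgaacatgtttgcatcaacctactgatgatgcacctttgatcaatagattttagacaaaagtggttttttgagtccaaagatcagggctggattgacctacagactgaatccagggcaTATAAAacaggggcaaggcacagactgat
Pck1, chr2:173152823-173153072: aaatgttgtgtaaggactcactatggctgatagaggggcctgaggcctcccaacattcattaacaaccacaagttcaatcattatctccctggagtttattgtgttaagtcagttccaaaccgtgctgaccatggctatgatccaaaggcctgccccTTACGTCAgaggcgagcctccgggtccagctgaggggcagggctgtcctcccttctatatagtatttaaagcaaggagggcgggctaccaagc
The *G6pc* window held TTACGTAA from 162 to 155 bases before the start, the forkhead form, which reads TGTTTTG on this strand, from 174 to 168 and TATAAA from 29 to 24, and the *Pck1* window held TTACGTCA from 93 to 86. No matches of different motifs overlapped. Of all 32851 promoter windows of that length, 0.788% held TTACGTNA, a motif written down with both promoters in view, while 5.56% held CAAAACA and 12.4% TATAAA. Among the other 4 genes, *Pck2* also held CAAAACA (159 to 153) and *Slc37a4* TATAAA (32 to 27). TGACGTCA (1.55% of windows) and GTAAACA (3.17%) matched none of the 6 genes. These matches describe the letters in the windows only, and the GENCODE genes begin upstream of both RefSeq starts.

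All values are FPKM, fragment counts divided by exon length and by the library's mapped reads, so levels can be compared between genes. *Pck1* was the most abundant of the 6, with 1297 ± 669.6 FPKM (SD, n = 8 mice), and exceeded 99.95% of the genes in the table. *Fbp1* followed at 509.7 ± 162, *G6pc* at 205 ± 120.4, *Pcx* at 81.4 ± 27.9 and *Slc37a4* at 65.7 ± 20.1. *Pck2* was by far the least abundant at 2.45 ± 0.994. The order *Pck1*, *Fbp1*, *G6pc*, *Pcx* held in 8 of 8 mice, and *Slc37a4* exceeded *Pck2* 8.51-fold to 53.6-fold within each mouse. The neighbours *Pcx* and *Slc37a4* did not differ beyond their spread, since *Pcx* was the higher in 6 of 8 mice with a ratio of 0.937 to 1.47. Cytosolic *Pck1* made up 49.9% to 66.9% of the summed FPKM of the 6 genes, whereas mitochondrial *Pck2* contributed no more than 0.409%.

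**Figure D1:**
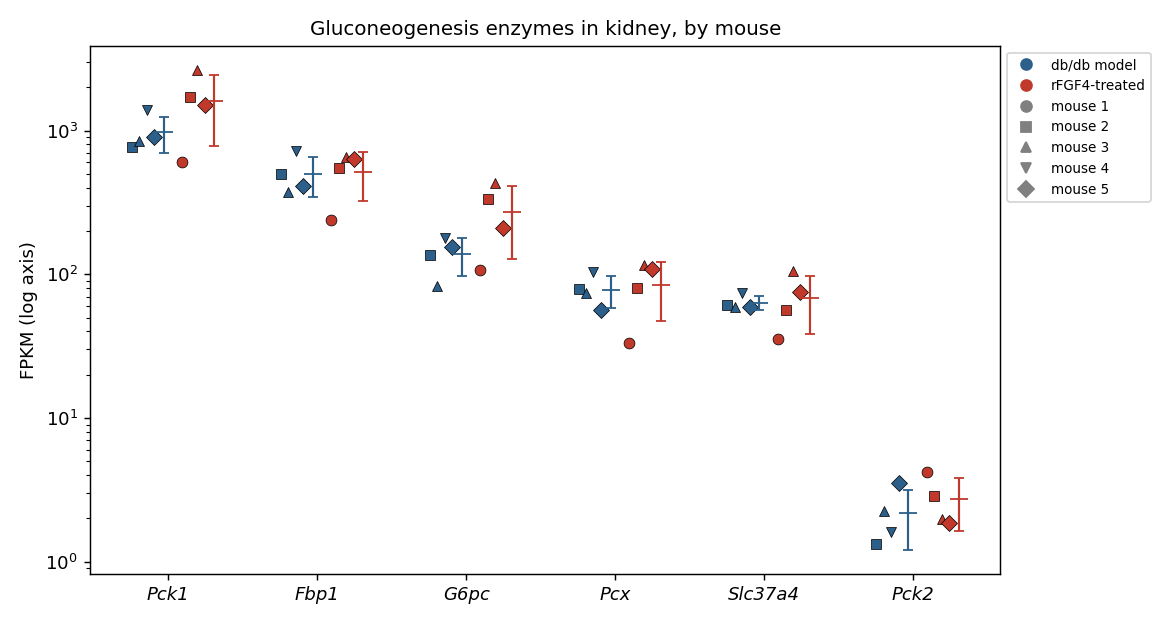
FPKM of each enzyme (log axis) in each mouse, with blue for db/db model and red for rFGF4-treated mice, a symbol for each mouse number, and the group mean ± SD (n = 4) to the right of the points. In rFGF4-treated mice 2, 3 and 5, *G6pc* and *Pck1* lie above all 4 model mice, while rFGF4 mouse 1 (circle) is the lowest of all 8 mice for *Pck1*, *Fbp1*, *Pcx* and *Slc37a4* and the highest for *Pck2*.

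To see whether rFGF4 treatment changed the pathway, the 4 treated mice were compared with the 4 model mice. *G6pc* and *Pck1*, the last step and the cytosolic entry step, were on average 1.95-fold and 1.66-fold as high in the treated mice, whereas *Fbp1*, *Pcx* and *Slc37a4* had nearly equal means in both groups. None of the 6 passed the test across all 8 mice, and in each of them the groups overlapped.

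*G6pc* reached 107, 334, 434 and 209.7 FPKM in rFGF4-treated mice 1, 2, 3 and 5, and 137, 83.2, 180.1 and 155 FPKM in model mice 2, 3, 4 and 5. Thus 3 of 4 treated mice exceeded every model mouse, and treated mouse 1 fell among them. The means were 271 ± 143 FPKM and 139 ± 41.2 FPKM (SD, n = 4 each), and the log2 fold change on the log2(FPKM + 1) scale was 0.83 (SE 0.44, 95% CI -0.17 to 1.84; limma p = 0.0926, adjusted p = 0.918; two-sided exact permutation p = 0.1714, where the smallest possible is 0.0286).

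*Pck1* reached 608, 1710.2, 2641 and 1512 FPKM in the treated mice and 771, 848, 1379 and 904 FPKM in the model mice, in the same order. Again treated mice 2, 3 and 5 lay above all model mice, while treated mouse 1 lay below all of them. The means were 1618 ± 834 and 976 ± 274 FPKM (n = 4 each), with a log2 fold change of 0.59 (SE 0.44, 95% CI -0.41 to 1.59; limma p = 0.215, adjusted p = 0.920; exact permutation p = 0.3143).

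The mitochondrial form *Pck2* stood at 4.19, 2.88, 1.97 and 1.85 FPKM in the treated mice against 1.33, 2.26, 1.61 and 3.50 FPKM in the model mice. Its highest values were those of treated mouse 1 and model mouse 5, and the groups were otherwise intermingled. The log2 fold change was 0.23 (SE 0.26, 95% CI -0.37 to 0.84; limma adjusted p = 0.926, exact permutation p = 0.4571). The ratio of *Pck1* to *Pck2* was 145, 593, 1340.2 and 819 in the treated mice and 578, 375, 857 and 258 in the model mice. These ratios overlapped widely, and their log2 difference of 0.24 was smaller than the spread between mice (exact permutation p = 0.8286).

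*Fbp1* measured 237, 551, 652 and 632 FPKM in the treated mice and 497, 372, 723 and 414 FPKM in the model mice. *Pcx* measured 33.4, 80.0, 115 and 109.5 FPKM against 79.3, 73.5, 104 and 56.1 FPKM. *Slc37a4* measured 35.7, 56.0, 106 and 74.7 FPKM against 61.1, 59.1, 73.8 and 59.5 FPKM. In all 3 genes the groups overlapped, and treated mouse 1 was the lowest of the 8. Their log2 fold changes were -0.01 (95% CI -0.84 to 0.82), 0.00 (-0.89 to 0.89) and 0.00 (-0.68 to 0.68), intervals that leave room for changes of over 1.5-fold in either direction.

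The study's call rule (p under 0.05 before adjustment, with a ratio of 1.5 or more, or 0.67 or less) was applied to this fit, and 0 of the 6 enzymes passed, against 1.53% of the 15150 tested genes in either direction. At an adjusted p under 0.05 no gene passed at all (0.0%). An unadjusted limma p under 0.05 was found in 700 genes (4.62%), less than the share of 0.05 that would pass if no gene differed. In 0 of the 6 enzymes were the groups without overlap, against 3.33% of tested genes. The median log2 fold change of the 6 was 0.12, beside 0.09 over all tested genes, of which 67.1% were higher in treated mice. That share depends on the scaling and on 1 mouse, and was 47.6% with libraries scaled to a common median ratio and 52.2% without treated mouse 1. Within that distribution *G6pc* lay above 98.8% and *Pck1* above 96.6% of the tested genes.

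Treated mouse 1 also stood apart in genes outside the pathway. The summed FPKM of 12 markers of the early proximal tubule (*Slc34a1*, *Slc5a2*, *Lrp2* and others) was 419 in this mouse, 1199 to 1679 in the other treated mice and 997 to 1727 in the model mice. *Slc34a1*, the phosphate transporter of these cells, stood at 136 FPKM there and between 483 and 824 FPKM elsewhere. The summed FPKM of 6 macrophage markers, by contrast, was 479 in treated mouse 1 and 497 in model mouse 5, and 27.5 to 204 in the other 6 mice. The shortfall in treated mouse 1 was not limited to the proximal tubule. The summed FPKM of 4 distal convoluted tubule markers was 56.1 there and 173 to 337 elsewhere. That of 5 red blood cell markers was 120.3 against 437 to 4325. Thick ascending limb markers were mixed. *Egf* (14.5 FPKM against 58.2 to 109.4), *Slc12a1* and *Kcnj1* were lowest there, whereas *Umod* (839 FPKM) and *Cldn16* (9.89 FPKM) were not. The summed FPKM of these 5 markers was 977 there, above the 918 of model mouse 5. In bulk kidney RNA, fewer proximal tubule cells and less of their RNA per cell cannot be told apart.

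Across the 8 mice, 3 of the enzymes followed the proximal markers closely. The mean log2(FPKM + 1) of the 12 markers correlated with *Fbp1* at Pearson r = 0.99 (rho = 0.95; exact permutation p = 0.000149 and 0.00114, adjusted over 6 relations 0.000893 and 0.0067), with *Pcx* at r = 0.95 (rho = 0.93, adjusted 0.00218 and 0.0067) and with *Slc37a4* at r = 0.90 (rho = 0.90, adjusted 0.00218 and 0.00913). Without treated mouse 1 and model mouse 3, the mice farthest from the median of the markers, r was 0.94, 0.96 and 0.81. The values were lower for *Pck1* (r = 0.78, rho = 0.71, adjusted permutation p = 0.023 and 0.0576) and *G6pc* (r = 0.67, rho = 0.76, adjusted permutation p = 0.0707 and 0.0551), and r dropped to 0.62 and 0.39 without the same mice. *Pck2* ran the other way (r = -0.78, rho = -0.71, adjusted permutation p = 0.023 and 0.0576), with r = -0.70 without them.

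**Figure D2:**
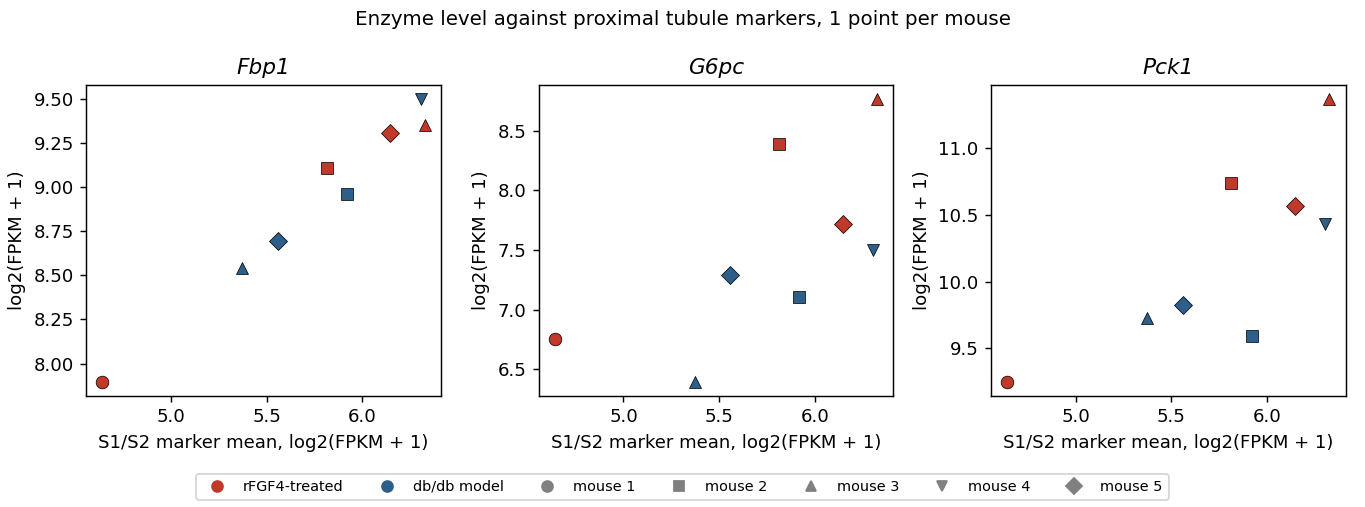
Each enzyme's log2(FPKM + 1) against the mean log2(FPKM + 1) of 12 early proximal tubule markers, 1 point per mouse, red for rFGF4-treated and blue for db/db model mice. The *Fbp1* points of both groups follow a single line (r = 0.99). For *Pck1*, treated mice 2, 3 and 5 sit higher than model mice of like marker level. No model mouse has a marker mean as low as that of treated mouse 1.

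Set against the markers of the same mouse, *Pck1* and *G6pc* were high in treated mouse 1 as well. The log2(FPKM + 1) of *Pck1* minus the marker mean was 4.61, 4.93, 5.04 and 4.42 in the treated mice and 3.67, 4.36, 4.13 and 4.26 in the model mice. The groups did not overlap, a pattern held by 0.106% of tested genes in the same direction. For *G6pc* the differences were 2.11, 2.58, 2.44 and 1.57 against 1.19, 1.02, 1.2 and 1.73, so that 3 of 4 treated mice lay above all model mice and treated mouse 5 lay below model mouse 5. *Fbp1* stayed at 3.18 ± 0.12 and 3.14 ± 0.07 (SD, n = 4 each), *Pcx* at 0.54 ± 0.07 and 0.48 ± 0.25, and *Slc37a4* at 0.27 ± 0.25 and 0.21 ± 0.28. *Pck2* stood at -3.88 ± 1.15 and -4.17 ± 0.75. High values in treated mouse 1 were not limited to *Pck1* and *G6pc*. That mouse was also highest for *Pck2* (-2.26, against -4.92 to -3.39 elsewhere) and, narrowly, for *Slc37a4* (0.56, against -0.08 to 0.54). Its *Fbp1* (3.26) was below only treated mouse 2 (3.29), and its *Pcx* (0.46) lay within the model range. Subtracting its low marker mean (4.64) lifts any gene that falls less than the markers. These differences were looked at with the values known and are given as description.

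**Figure D3:**
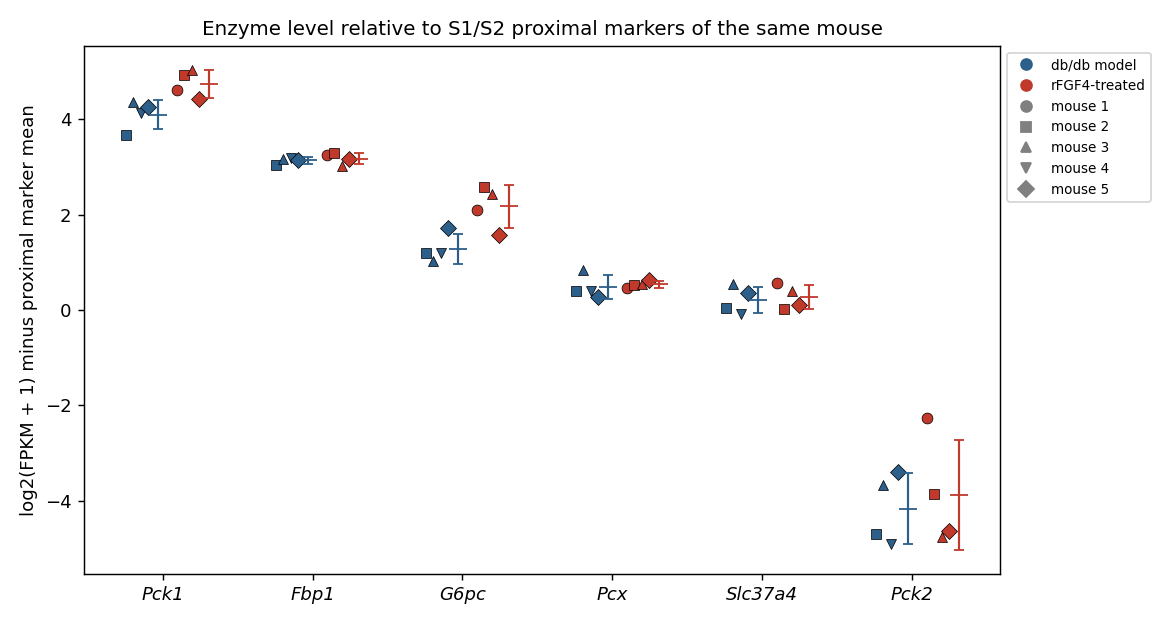
Log2(FPKM + 1) of each enzyme minus the mean of the 12 early proximal tubule markers in the same mouse, with points by mouse and group mean ± SD (n = 4) beside them. The 4 treated mice lie above the 4 model mice for *Pck1* (4.42 to 5.04 against 3.67 to 4.36), and the groups lie at the same height for *Fbp1*.

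With the marker mean as a covariate in the fit of all genes, *G6pc* rose by 0.89 on the log2 scale (SE 0.26, 95% CI 0.29 to 1.49; limma adjusted p = 0.571) and *Pck1* by 0.64 (SE 0.22, 95% CI 0.14 to 1.15; limma adjusted p = 0.571). Thus 2 of the 6 passed the study's threshold as higher, against 1.43% of all tested genes, and neither passed after adjustment. *Fbp1*, *Pcx*, *Slc37a4* and *Pck2* had log2 fold changes of 0.04, 0.06, 0.04 and 0.20 in this fit, with 95% confidence intervals that all include 0. The sizes for *G6pc* and *Pck1* differed little from those without the covariate, while their SE fell from 0.44 to 0.26 and 0.22. Treated mouse 1 had the lowest marker mean (4.64, against 5.37 to 6.33 in the other 7 mice), so this fit does not stand apart from that mouse.

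Without treated mouse 1, *G6pc* rose by 1.22 on the log2 scale (95% CI 0.44 to 2.0; limma adjusted p = 1.0) and *Pck1* by 1.0 (0.33 to 1.66; limma adjusted p = 1.0). Again 2 of 6 passed as higher, against 0.997% of all tested genes. Treated mouse 1 was the 1 treated mouse not above all model mice for these genes, so the separation that remains without it follows from leaving it out, and 0 of 6 passed when any other mouse was left out instead. Without treated mouse 3, the highest for both genes, *G6pc* stood at 0.55 and *Pck1* at 0.29. In the fit without treated mouse 1, *Fbp1* stood at 0.33, *Pcx* at 0.39 and *Slc37a4* at 0.27, and none of these 3 passed. Whether the marker content of mouse 1 is what set its enzyme levels was not tested.

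**Figure D4:**
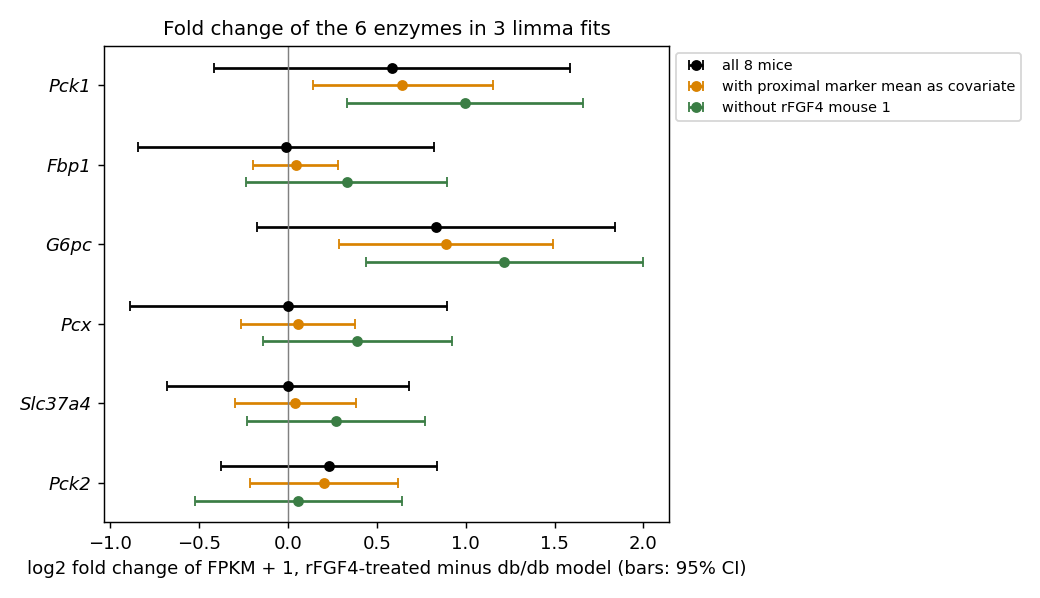
Log2 fold change of FPKM + 1 (treated minus model, horizontal axis) with 95% confidence intervals for each enzyme in 3 limma fits: all 8 mice (black), with the proximal marker mean as covariate (orange) and without treated mouse 1 (green). The intervals of *G6pc* and *Pck1* reach across 0 with all 8 mice and lie above 0 in both other fits.

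The proportions between the enzymes do not depend on how a library was scaled. Of the 15 ratios between pairs of the 6 genes, 2 did not overlap between the groups. *Pck1* to *Fbp1* was 2.56, 3.11, 4.05 and 2.39 in the treated mice and 1.55, 2.28, 1.91 and 2.19 in the model mice, and 0.205% of tested genes had a ratio to *Fbp1* that was higher in treated mice without overlap. *G6pc* to *Slc37a4*, the hydrolase against its substrate carrier, was 3.0, 5.97, 4.11 and 2.81 in the treated mice and 2.24, 1.41, 2.44 and 2.61 in the model mice, and 0.218% of tested genes had such a ratio to *Slc37a4*. *G6pc* to *Pck1* was 0.169 ± 0.0238 and 0.145 ± 0.0374 (SD, n = 4 each), with overlapping groups. *Fbp1* to *Pcx* was 6.35 ± 0.750 and 6.42 ± 1.01. The 2 ratios were picked from 15 after their values were seen and carry no test.

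Between the enzymes themselves, *G6pc* and *Pck1* varied together from mouse to mouse (r = 0.91, rho = 0.93; exact permutation p = 0.00104 and 0.00223, and adjusted over 15 pairs 0.00595 and 0.0335), and r was 0.92 without treated mouse 3 and model mouse 3. *Fbp1* and *Pcx* did so too (r = 0.95, rho = 0.90, adjusted permutation p = 0.00595 and 0.0342; r = 0.94 without treated mouse 1 and model mouse 3). *Pcx* and *Slc37a4* had r = 0.91 and rho = 0.83 (adjusted permutation p = 0.00595 and 0.0577; r = 0.80 without treated mice 1 and 3). *Fbp1* and *Slc37a4* had r = 0.86 and rho = 0.79 (adjusted permutation p = 0.0251 and 0.0598; r = 0.64 without treated mouse 1 and model mouse 3). *Pck1* was related by r to these 3 as well, at 0.82 with *Slc37a4*, 0.80 with *Fbp1* and 0.79 with *Pcx* (adjusted permutation p = 0.0269, 0.0286 and 0.0286), although rho did not pass (0.57, 0.76 and 0.83; adjusted permutation p = 0.174, 0.0689 and 0.0577), and r was 0.36, 0.73 and 0.60 without treated mice 1 and 3. For *G6pc* the relation did not pass with its own carrier *Slc37a4* (r = 0.65, rho = 0.57, adjusted permutation p = 0.101 and 0.174), *Fbp1* (r = 0.69, rho = 0.79, adjusted 0.0879 and 0.0598) or *Pcx* (r = 0.59, rho = 0.81, adjusted 0.137 and 0.0598). *Pck2* had a negative r with each of the other 5, which for *Pcx* was -0.81 (rho = -0.62, adjusted permutation p = 0.0286 and 0.157) and -0.26 without treated mouse 1 and model mouse 5, so this relation rests on those 2 mice.

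Among the 13199 tested genes with a mean of at least 1 FPKM, those most like each enzyme over the 8 mice were also found, by Pearson r as a description. For *G6pc* they were *Mttp*, which loads lipid onto apolipoprotein B (r = 0.981), *Ndel1* (0.962) and *Ghdc* (0.961). For *Pck1* they were the mitochondrial carriers *Slc25a25* (0.966) and *Slc25a10* (0.965), the latter exchanging dicarboxylates such as malate, and *Fitm2* (0.965). For *Fbp1* they were the dicarboxylate transporter *Slc13a3* (0.987), *Fcamr* (0.985) and *9130016M20Rik* (0.985), and for *Pcx* the cytochrome *Cyp2e1* (0.988), *Acox3* (0.981) and *Gatb* (0.980). For *Slc37a4* they were *Pycrl* (0.959), *Cdk18* (0.949) and *Sfxn5* (0.949). *Pck2* was most like *Ppp2r5b* (0.995), *Ubn2* (0.994) and *Tlr2* (0.993), a receptor of innate immune cells, and its highest values came from the 2 mice with the highest macrophage markers. With the mean log2(FPKM + 1) of the 6 macrophage markers as a covariate, an alternative chosen after seeing the data, the log2 fold change of *Pck2* was 0.11 (SE 0.086), beside 0.23 (SE 0.26) without it.

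The remaining enzymes of the pathway and the genes that bring in its substrates were read the same way. Of 31 such genes 30 were tested, 16 were higher and 14 lower in the treated mice, beside 67.1% higher among all tested genes, and 0 passed the study's threshold, beside 1.53% of all tested genes, with a median log2 fold change of 0.01. *Glud1*, which releases ammonia from glutamate, had the smallest p, with 106, 136, 148 and 127 FPKM in the treated mice and 100.1, 87.3, 128 and 101 FPKM in the model mice (log2 fold change 0.31, SE 0.16; limma adjusted p = 0.918, exact permutation p = 0.0857). The basolateral glucose exit carrier *Slc2a2* measured 17.4, 24.2, 31.0 and 23.2 FPKM against 17.6, 13.7, 23.5 and 18.5 FPKM (0.36, SE 0.21; limma adjusted p = 0.918, exact permutation p = 0.2286). The paralogs *G6pc3* (-0.14, SE 0.15) and *Fbp2* (-0.04, SE 0.23) did not pass. The mitochondrial carriers *Slc25a10* (0.30, SE 0.22) and *Mpc2* (-0.24, SE 0.16) and the lactate carrier *Slc16a1* (0.33, SE 0.29) did not pass either, and *G6pc2* stayed below 0.5 FPKM in every mouse. Without treated mouse 1, 1 of the 30 passed as higher, *Gpd1*, the cytosolic glycerol phosphate dehydrogenase, beside 0.997% of all tested genes, and nothing is read from this count.

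Among 18 genes of glycolysis and of the control of pyruvate use, 15 were tested, 1 rose and 0 fell, beside 1.53% of all tested genes called in either direction, with a median log2 fold change of -0.05. The gene that rose was *Pdk4*, whose product inhibits pyruvate dehydrogenase and so spares pyruvate for carboxylation. It measured 20.3, 30.8, 16.1 and 10.8 FPKM in the treated mice and 3.13, 15.7, 8.82 and 4.86 FPKM in the model mice (log2 fold change 1.28, SE 0.46; limma p = 0.0232, adjusted p = 0.918; exact permutation p = 0.0571). Treated mouse 5 lay below model mouse 3, so the groups overlapped, and the call was lost without treated mouse 1, treated mouse 2, model mouse 2 or model mouse 5 (1.23, 1.04, 0.96 and 1.13) and without the 2 mice with the highest macrophage marker levels (1.08, an alternative chosen after seeing the data). Pyruvate kinase *Pklr*, which runs against *Pck1*, was also higher on average without passing (0.61, SE 0.27; limma adjusted p = 0.918, exact permutation p = 0.0571). *Pklr* passed without treated mouse 5 (0.81) or model mouse 5 (0.78). It also passed without the 2 mice with the highest macrophage marker levels, treated mouse 1 and model mouse 5 (0.59, chosen after seeing the data). Further passes came with array weights (0.66), with FPKM scaled without mitochondrial genes (0.70) and among genes of at least 1 FPKM in every mouse (0.61). *Pfkm* (-0.38, SE 0.20), *Pkm* (-0.37, SE 0.23), *Pfkl* (-0.22, SE 0.17), *Pdk1* (-0.21, SE 0.19) and *Hk1* (-0.05, SE 0.29) did not pass.

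Of 31 regulators of the pathway, all tested, 22 were higher and 9 lower in treated mice, beside 67.1% higher among all tested genes. Of the 31, 2 rose and 0 fell (1.53% of all tested genes were called in either direction), with a median log2 fold change of 0.13. The insulin receptor gene *Insr* measured 3.87, 1.5, 1.04 and 4.45 FPKM in the treated mice and 0.620, 0.506, 0.778 and 1.01 FPKM in the model mice (0.99, SE 0.32; limma adjusted p = 0.918, exact permutation p = 0.0286). The groups did not overlap, although treated mouse 3 and model mouse 5 were nearly equal at levels near 1 FPKM, and *Insr* passed the threshold without each mouse in turn. At such low levels the size depends on the pseudocount, and the log2 fold change of *Insr* was 1.57 with a pseudocount of 0.1 and 1.68 with 0.01. *Ppara*, the fatty acid receptor that drives fasting genes, measured 3.27, 7.86, 15.6 and 6.88 FPKM against 3.26, 0.991, 4.63 and 2.19 FPKM (1.26, SE 0.45; limma adjusted p = 0.918, exact permutation p = 0.0571), with treated mouse 1 below model mouse 4. The call for *Ppara* was lost without treated mouse 3 (0.93) or model mouse 3 (0.98), and also with libraries scaled to a common median ratio (1.16).

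Other regulators did not pass in the fit of all 8 mice without weights or a replicate block. The forkhead factor *Foxo1* measured 4.83, 7.10, 10.9 and 6.27 FPKM in the treated mice and 4.95, 4.93, 4.62 and 4.83 FPKM in the model mice (0.46, SE 0.21; limma adjusted p = 0.918, exact permutation p = 0.1143). As for *Pck1*, treated mice 2, 3 and 5 lay above all model mice and mouse 1 did not, and *Foxo1* passed the threshold without mouse 1 (0.61), a separation that again follows from leaving that mouse out. Without treated mouse 3 *Foxo1* stood at 0.26. With array weights, which were lowest for treated mouse 1 (0.271), *Foxo1* passed too (0.60). In that fit 4 of the 31 regulators passed as higher, beside 2.4% of all tested genes. *Foxo3* was without overlap between the groups but under 1.5-fold (0.44, SE 0.15; limma adjusted p = 0.918, exact permutation p = 0.0286). *Sik2* was without overlap too (0.22, SE 0.12; limma adjusted p = 0.918, exact permutation p = 0.0286), a pattern held by 3.33% of tested genes. The change in *Irs2* (0.32, SE 0.15) was smaller than that in *Foxo3*, and its groups overlapped. The coactivators *Ppargc1a* (-0.18, SE 0.19) and *Crtc2* (0.08, SE 0.15), the tubular factor *Hnf4a* (0.08, SE 0.23) and the glucocorticoid-responsive *Klf15* (-0.02, SE 0.30) did not pass.

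Markers of other cells and states were read beside these results, by list and number tested, and the share called among all tested genes was 1.53% in either direction, with 67.1% higher. Of the 12 early proximal tubule markers 4 were higher and 8 lower (median log2 fold change -0.09), and 1 rose and 0 fell (*Slc4a4*, the basolateral bicarbonate carrier, 0.69, SE 0.30; limma adjusted p = 0.918, exact permutation p = 0.1143), and of 8 late proximal tubule markers 1 rose (*Slc5a1*, a glucose transporter) and 1 fell (*Slc22a19*). Of 5 thick ascending limb, 4 distal convoluted tubule, 6 collecting duct, 5 endothelial, 6 macrophage, 2 lymphocyte and 5 red blood cell markers, 0 passed the threshold. Several lists lay on 1 side: all 5 red blood cell (median log2 fold change -1.97), 4 distal convoluted tubule (-0.39), 6 collecting duct (-0.24) and 5 endothelial markers (-0.22) were lower, while all 6 macrophage (0.42), 5 of 5 podocyte (0.26) and 9 of 10 liver markers (0.53) were higher. Among 5 podocyte markers *Synpo* rose, among 10 liver markers *Apoa1* and *Serpina1a* rose while *Cps1* and *Tat* stayed below 0.5 FPKM, and of 2 tested adipose markers *Fabp4* fell and *Plin4* did not pass (0.35, SE 0.26), while *Adipoq*, *Plin1*, *Lep*, *Retn*, *Cfd* and *Adrb3* stayed below 0.5 FPKM. All 8 immediate early genes tested were higher, with summed FPKM of 178, 198, 193 and 43.0 in the treated mice against 43.2, 71.6, 33.7 and 123 in the model mice, and *Dusp1* passed. Of 11 clock genes 0 passed and 7 were higher. The summed FPKM in treated against model mice was 120.3 to 2657 against 1139 to 4325 for the red blood cell markers, 285 to 552 against 197 to 306 for the liver markers, 7.87 to 15.9 against 12.1 to 18.6 for the adipose markers and 69.1 to 2647 against 23.0 to 22389 for the lymphocyte markers. With the macrophage marker mean as a covariate, *G6pc* stood at 0.92 (SE 0.42) and *Pck1* at 0.70 (SE 0.39), and neither passed. Only the early proximal tubule and macrophage markers were used as covariates. What part any of these genes had in the levels of *G6pc* and *Pck1* was not tested.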

How the data were processed

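RNA-seq of kidney was available for 8 mice, 4 rFGF4-treated and 4 db/db model, grouped by the labels. The deposited table gives FPKM per gene, which the authors calculated with StringTie after mapping. The submitters' processing notes name StringTie 1.3.0, HISAT2 2.0, Bowtie 0.12.2 and mm8. Columns with the authors' own edgeR comparison (fold change, its log2, p-value, q-value) were not used. The table holds no counts, so depth is unknown; relative depth, from the steps of low values, was 0.905 to 1.12, summed FPKM was 389407 to 552604, and mitochondrially encoded genes took 19.0% to 38.4% of it. A value of 0.0001 stands where 0 would be. Nothing states litters or batches, so p-values measure the spread between these mice.

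The test took genes whose FPKM was 0.5 or more in 4 libraries at the least, on log2(FPKM + 1), by limma 3.58.1 (R 4.3.3). The prior variance followed a trend, and p-values were adjusted by Benjamini-Hochberg over all these genes. The fit was tested on simulated data. Single values used two-sided exact permutation tests (Python 3.11.15). Members and 17 lists were chosen with earlier results of these data known. Named were the 6 enzymes, up to 6 genes of smallest p from each list, 13 preset pathway genes and the 3 genes most correlated with each enzyme; *Gpd1* was named after its value was seen, and list genes without values in the text are summarised as counts. Results of some list genes are not reported here. Where a symbol had several rows, the one with the highest mean was used. Promoter sequences came from RefSeq (GRCm38.p6) and matched all 6 symbols; 55141 identifiers (99.53%) were found in GENCODE M21. Figures used matplotlib 3.10.9.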

Additional observations from a re-analysis of the deposited data

Results flagged for a closer look

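In 204 groups of 4 mice (102 quantities in 2 groups each), the gap between the most extreme mouse and its neighbour, as a share of the group's range on the log2(FPKM + 1) scale, exceeded Dixon's limit of 95% in 11, where chance alone gives about 10. Of the 6 enzymes, *Fbp1* was set apart by its low value in treated mouse 1 (237 FPKM against 551 to 652 FPKM in the other treated mice; share 0.833). *Slc37a4* was set apart by its high value in model mouse 4 (73.8 FPKM against 59.1 to 61.1 FPKM in the other model mice; share 0.848).

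In treated mouse 1, *Slc12a3* was the lowest of its group at 20.5 FPKM (share 0.946). *Slc16a1* was the lowest in treated mouse 5 at 4.30 FPKM (0.900) and in model mouse 2 at 3.66 FPKM (0.872). *Pkm* was the lowest in treated mouse 3 at 42.3 FPKM (0.957), and *Jun* the lowest in treated mouse 5 at 9.13 FPKM (0.889). Model mouse 5 had the highest *Crtc2* of its group at 15.3 FPKM (0.902) and the highest *Wt1* at 1.0 FPKM (0.830). Model mouse 2 had the highest *Ciart* at 6.57 FPKM (0.915) and the lowest *Cry1* at 1.69 FPKM (0.861).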

How the results depend on the processing

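*G6pc* and *Pck1* kept a positive log2 fold change under all 20 alternatives (0.55 to 1.36 and 0.29 to 1.18), with adjusted p from 0.391 to 1.0 and from 0.397 to 1.0. The number of the 6 enzymes past the study's threshold was 2 instead of 0, *G6pc* and *Pck1* each time, with array weights (1.12 and 0.84; 2.4% of all tested genes passed as higher), with the proximal marker covariate (0.89 and 0.64; 1.43%), with the replicate block (1.36 and 1.18; 1.2%) and, as an alternative chosen after seeing the data, without the 2 macrophage-rich mice, treated 1 and model 5 (1.29 and 0.97; 1.33%). These fits and the one without treated mouse 1 are not separate evidence: that mouse had the lowest array weight (0.271) and the lowest proximal marker mean (4.64), no partner in the block, which takes it out of the contrast, and is 1 of the 2 macrophage-rich mice. Leaving out each mouse in turn gave 0 to 2 enzymes and log2 fold changes of 0.55 to 1.22 for *G6pc*, 0.29 to 1.0 for *Pck1*, 0.06 (without treated mouse 1) to 0.42 (without model mouse 5) for *Pck2*, -0.15 to 0.33 for *Fbp1*, -0.20 to 0.39 for *Pcx* and -0.24 to 0.27 for *Slc37a4*, and a log2 difference of the *Pck1* to *Pck2* ratio of -0.18 to 0.89; the 2 came without treated mouse 1. *Fbp1*, near 0 with all mice, turned positive when scaled without mitochondrial genes (0.09), with array weights (0.07), the proximal covariate (0.04), the macrophage covariate added later (0.12), the replicate block (0.52) and without the 2 macrophage-rich mice (0.25). *Pcx* and *Slc37a4* turned negative with a common median ratio (-0.12 and -0.13), and *Pck2* with the replicate block (-0.02). The cause of these shifts was not tested.

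Both groups share mouse numbers 2, 3 and 5, and deviations of same-numbered mice correlated at -0.229, -0.155 and -0.393. These values show no pairing by number but cannot exclude a shared litter or batch, which nothing states. Over the 3 pairs the *Pck1* to *Pck2* ratio differed by 1.18 on the log2 scale (exact sign-change p = 0.25, the smallest 3 pairs allow). With that block, 3 of the 30 other pathway genes passed as higher (*Gpd1*, *Slc25a10* and *Slc2a2*) instead of 0, 0 of 15 glycolysis genes instead of 1, and 3 of 31 regulators (*Foxo1*, *Insr* and *Ppara*) instead of 2, beside 182 genes higher and 81 lower among all 15150 (1.74%); 46.7% of all genes were higher in that fit. The 232 genes past the threshold, 165 higher and 67 lower, split into 93 and 83 with a common median ratio and 279 and 43 when scaled without mitochondrial genes, and became 496 with array weights, 580 without treated mouse 5 and 434 without model mouse 5. Without counts, the counting error of a low value such as that of *Pck2* is unknown.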
